A study of Mus musculus with 23 samples.

Results

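The let-7 passenger strands are the 3p products of the let-7 precursor hairpins. They were taken by name from the deposited miRNA count tables: let-7a-1-3p, let-7a-2-3p, let-7b-3p, let-7c-1-3p, let-7c-2-3p, let-7d-3p, let-7e-3p and let-7f-1-3p, 8 of the 1915 named mature miRNAs. The tables hold 23 small RNA libraries of brain tissue dissected from C57BL/6 mice, from cerebellum, cortex, hippocampus and olfactory bulb. Each region has 3 wild type libraries and 3 libraries of the Cdr1as knockout, except that knockout hippocampus has 2, which carry the numbers 2 and 3. Cdr1as is a circular RNA of neurons that binds miR-7. The knockout is named in the labels with no allele, age or sex, and the circular RNA itself is not among the rows of a miRNA table, so these files do not check the genotype. Whether a group's libraries are separate animals is not in the labels, so p-values measure only the spread between these samples, which may be technical. In bulk tissue, fewer cells of a type and less RNA per cell cannot be told apart.

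Let-7 is an ancient miRNA family that restrains proliferation and promotes differentiation, and its guide strands are among the most abundant miRNAs of the mature brain. Each precursor is cut into a short duplex whose 5p strand is usually loaded into Argonaute as the guide, while the 3p strand, the passenger, is mostly released and degraded. Several precursors give the same guide, so the guide does not tell which gene was used. Their passengers often differ, and a passenger read can then be assigned to its precursor.

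The mature sequences show which of the 8 strands can be told apart. All 8 matched RefSeq entries of GRCm38.p6. They are printed 5′ to 3′, with the seed (bases 2 to 8) in capitals.
let-7a-1-3p: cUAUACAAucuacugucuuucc
let-7c-2-3p: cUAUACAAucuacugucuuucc
let-7b-3p: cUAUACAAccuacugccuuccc
let-7f-1-3p: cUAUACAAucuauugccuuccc
let-7d-3p: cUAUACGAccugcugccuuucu
let-7e-3p: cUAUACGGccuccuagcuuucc
let-7c-1-3p: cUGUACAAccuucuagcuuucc
let-7a-2-3p: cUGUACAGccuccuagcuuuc

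Let-7a-1-3p and let-7c-2-3p are the same sequence, and their rows held the same count in 23 of 23 libraries. The 8 rows therefore carry 7 distinct sequences, and the values of this pair are given once, as let-7a-1/c-2-3p. The files do not show how its reads divide between the Mirlet7a-1 and Mirlet7c-2 hairpins. By seed, let-7a-1, let-7b, let-7c-2 and let-7f-1 form 1 group of 4 (UAUACAA), which miR-98-3p shares. The other 4 members each have a seed that no other mature strand in the RefSeq table has. Let-7a-2, let-7c-1 and let-7e share a run of 9 bases near the 3′ end, CUAGCUUUC, which the other 5 members lack. Their hairpins also have the shortest spans between the arms, 23 bases each, against 26 to 34 in the other 5.

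The precursors of let-7c-1 and let-7c-2 are shown with Mirlet7a-1 because the copy results below turn on them. Both arms are in capitals, and the guide is the first run of capitals.
Mirlet7c-1: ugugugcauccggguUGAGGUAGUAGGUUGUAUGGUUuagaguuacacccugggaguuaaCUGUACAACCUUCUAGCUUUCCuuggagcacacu
Mirlet7c-2: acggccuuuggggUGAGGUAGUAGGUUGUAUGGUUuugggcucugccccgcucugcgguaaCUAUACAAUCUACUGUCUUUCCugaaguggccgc
Mirlet7a-1: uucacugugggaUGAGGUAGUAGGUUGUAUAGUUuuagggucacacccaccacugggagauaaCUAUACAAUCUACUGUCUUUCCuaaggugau
The let-7c-1 and let-7c-2 hairpins have the same guide arm, and their passengers are identical at 17 of 22 positions. An RNAfold prediction of each hairpin, from the guide's first base to the passenger's last, left 5 passenger bases unpaired in Mirlet7c-1 and 3 in both Mirlet7c-2 and Mirlet7a-1.

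The 8 genes lie at 5 places in GRCm38, matched by name because the counts were made on another build. Mirlet7a-1 (chr13:48538179-48538272), Mirlet7f-1 (chr13:48537829-48537917) and Mirlet7d (chr13:48536012-48536114) lie together on the minus strand in exons of the long non-coding RNA 6720427I07Rik. Mirlet7c-2 (chr15:85706603-85706697) and Mirlet7b (chr15:85707319-85707403) lie on the plus strand in exons of Lncppara. Mirlet7c-1 (chr16:77599657-77599750, plus strand) lies in an intron of Mir99ahg, the host transcript it shares with miR-99a and miR-125b-2. Mirlet7a-2 (chr9:41536716-41536811, plus strand) lies in introns of 3110039I08Rik and Gm49317, near miR-100 and miR-125b-1. Mirlet7e (chr17:17830352-17830444, plus strand) lies in an intron of the protein-coding gene Spaca6, near miR-99b and miR-125a.

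Libraries held 2328929 to 13070794 counts, with knockout cortex 3 (2328929) and knockout olfactory bulb 3 (2530737) the shallowest. Pairs of libraries in a group differed by more than sampling noise, with chi-square statistics of 28.4 to 242 per degree of freedom. Levels are given as CPM, the count scaled to a common library total, after TMM scaling, which adjusts that total by the miRNAs that change least between libraries. The neuronal miRNAs miR-124-3p, miR-9-5p and miR-128-3p were counted in every library. The 8 markers of olfactory bulb and epithelium (the miR-200 family with miR-182, miR-183 and miR-96) summed to 3676 to 6803 CPM in wild type cortex and to 141 to 445 CPM in knockout cortex, against 271210 to 300812 CPM in wild type olfactory bulb. All 8 were lower in knockout cortex by edgeR (adjusted p under 0.05). The wild type cortex libraries thus stand apart, and that limit applies to every result below that uses them, also where it is not repeated.

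The passenger strands were counted in every library, at levels from 710.4 CPM down to 0.579 CPM. Counted once per sequence, they summed to 529 to 1059 CPM by library size alone, while all let-7 reads of both arms made up 5.27% to 9.49% of a library. All 8 passed the filter on low counts, with 669 miRNAs tested in all. Let-7d-3p was the most abundant, with a median of 369 CPM over the 23 libraries (214 to 710.4 CPM), and ranked 113 of 669. Let-7a-1/c-2-3p had a median of 197 CPM (68.4 to 295), and let-7b-3p of 146 CPM (60.1 to 233). Let-7e-3p followed with 33.3 CPM and let-7f-1-3p with 13.1 CPM. Let-7a-2-3p and let-7c-1-3p were the rarest, with medians of 4.32 and 2.83 CPM and as few as 4 and 2 counts in a library. For these last 2 strands counting error alone is large, and a library with under 10 counts says little by itself.

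**Figure D1:**
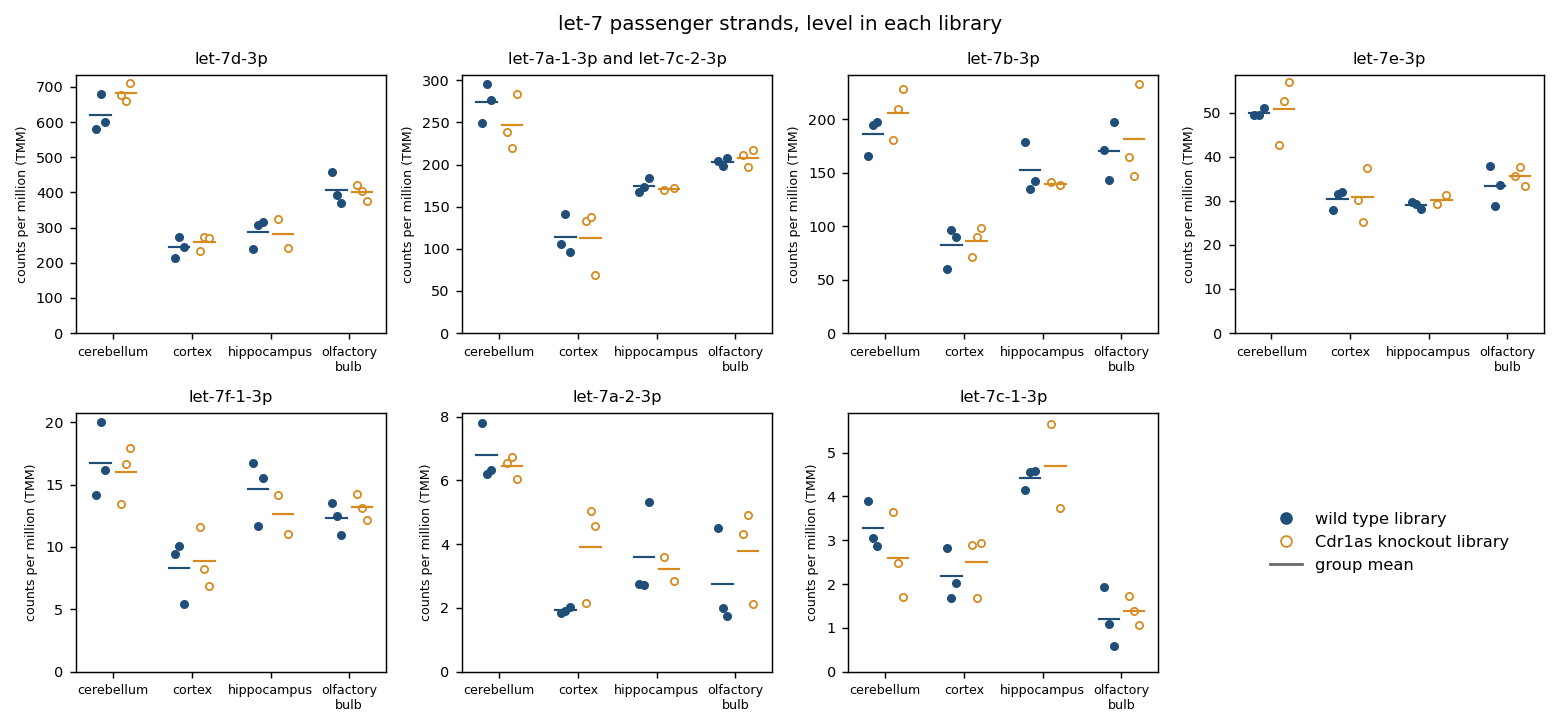
Level of each let-7 passenger strand in TMM-scaled CPM (y axis, from 0) by brain region (x axis). Filled points are wild type libraries, open points Cdr1as knockout libraries and bars group means. Points of both genotypes overlap in nearly every region, while the cerebellum is the highest region in 6 of the 7 panels and the hippocampus in the panel of let-7c-1-3p.

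The share of the passenger relative to its guide differed over a far wider range than the level. The ratio was taken as passenger counts per 1000 counts of the guide of the same letter, which pools the guide of all copies. Let-7d-3p had a median of 274 per 1000 let-7d-5p counts (158 to 369). Let-7b-3p had 91.6 (58.7 to 121) and let-7e-3p 30.3 (21.0 to 39.3). The row of let-7a-1/c-2-3p gave 15.6 per 1000 let-7a-5p counts and 10.8 per 1000 let-7c-5p counts. Passenger reads of either hairpin may be fewer, because Mirlet7a-1 and Mirlet7c-2 share them. Each guide also pools a second hairpin, so the share of either hairpin may be lower or higher than these values. The last 3 strands were below 1 per 1000 in every library, with medians of 0.479 for let-7f-1-3p, 0.332 for let-7a-2-3p and 0.179 for let-7c-1-3p. Guides of the last 3 strands also come from a second hairpin. The 4 let-7 strands not among the members (let-7f-2-3p, let-7g-3p, let-7i-3p and miR-98-3p) had medians of 2.49, 3.49, 4.21 and 21.2 per 1000.

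The first question of the design was whether loss of Cdr1as moved these strands. No passenger strand passed the test in any region. By edgeR (adjusted p under 0.05 over the 669 miRNAs), 0 of 8 were called in cerebellum, where 0.149% of all miRNAs were called, and 0 of 8 in cortex, against 2.09%. In hippocampus 0 of 8 were called, against 0%, and in olfactory bulb 0 of 8, against 0.149%. For the mean of the 4 regions 0 of 8 were called, against 1.49%, and for a difference of the knockout effect between regions 0 of 8, against 1.64%. DESeq2 and limma-voom also called 0 in each of these 6 comparisons. At an unadjusted p under 0.05 each of the 3 tools gave 1 member in cortex, let-7a-2-3p, and 0 elsewhere. By edgeR that threshold took in 1.94% of all miRNAs in cerebellum, 4.63% in cortex, 5.83% in hippocampus, 2.99% in olfactory bulb, 5.83% in the mean and 3.89% for the difference between regions.

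The abundant strands were measured closely enough to bound the genotype difference. Let-7d-3p was at 580.2, 679 and 601 CPM in wild type cerebellum and at 678, 660.4 and 710.4 CPM in knockout. Those groups overlap. Averaged over the 4 regions, its log2 difference, knockout minus wild type, was 0.04 (95% interval -0.10 to 0.19). Let-7e-3p gave 0.05 (-0.11 to 0.20), let-7b-3p 0.04 (-0.16 to 0.25) and let-7a-1/c-2-3p -0.04 (-0.24 to 0.16). The intervals of the rarer strands were wider: let-7f-1-3p gave -0.02 (-0.26 to 0.22), let-7c-1-3p 0.00 (-0.37 to 0.37) and let-7a-2-3p 0.31 (-0.06 to 0.68). The median over the members was 0.02 and over all miRNAs tested -0.00.

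**Figure D2:**
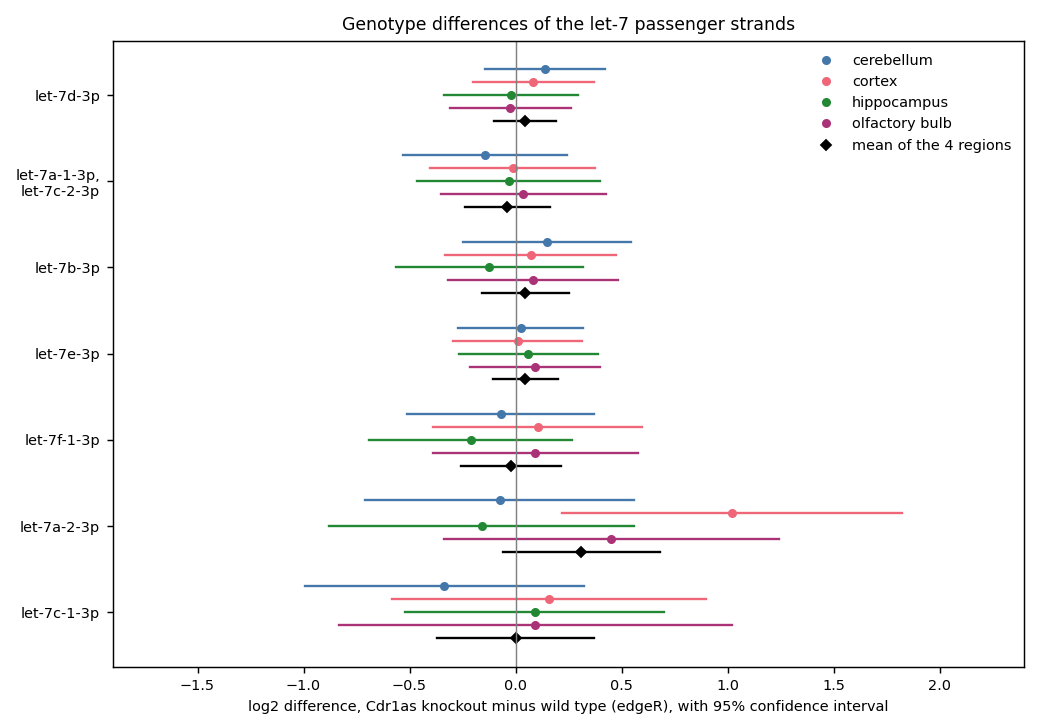
Log2 difference in level, Cdr1as knockout minus wild type (x axis), of each let-7 passenger strand (y axis) in 4 regions and for their mean. Points are edgeR estimates and lines 95% confidence intervals. The interval of let-7a-2-3p in cortex, 0.22 to 1.82, lies above 0, and the others drawn include 0.

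Let-7a-2-3p in cortex had the largest difference between the genotypes. Wild type cortex held 1.84, 1.91 and 2.02 CPM (13, 17 and 13 counts) and knockout cortex 2.17, 5.04 and 4.56 CPM (12, 36 and 14 counts). The groups did not overlap, which held for 1 of 8 members in cortex and for 7.62% of all miRNAs there. The highest wild type library (2.02 CPM) and the lowest knockout library (2.17 CPM) lie close together. The log2 difference was 1.02 (SE 0.39, 95% interval 0.22 to 1.82, edgeR adjusted p = 0.516). It ran from 0.71 to 1.34 with 1 library left out at a time, with adjusted p of 0.111 or more (edgeR). Olfactory bulb markers were higher in the same wild type cortex libraries (8 of 8 markers, values above). Wild type olfactory bulb held let-7a-2-3p at 4.51, 2.01 and 1.74 CPM, and the part of those markers in the cortex difference was not tested.

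Let-7a-1/c-2-3p had 1 low library. Knockout cortex was at 133, 137 and 68.4 CPM and wild type cortex at 106, 141 and 96.1 CPM, so the groups overlap. The low value is that of knockout cortex 3, which has the fewest counts of all libraries. In that library let-7b-3p (98.1 CPM) and let-7d-3p (269 CPM) were within or above the range of the other knockout cortex libraries. Let-7f-1-3p was the lowest of its group there (6.84 CPM, 21 counts, against 11.6 and 8.26 CPM), as were let-7f-2-3p, let-7g-3p, let-7i-3p and miR-98-3p. The cortex difference of let-7a-1/c-2-3p was -0.01 (SE 0.19, edgeR adjusted p = 0.997).

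The ratio of passenger to guide, which would move if the knockout changed the use of the 2 arms, was tested by limma over 227 pairs of arms. In the mean of the 4 regions 0 of 8 members were called, against 0.881% of all pairs, with 0 at an unadjusted p under 0.05, against 4.41%. No member was called in any single region either, where 0%, 1.76%, 0% and 0% of pairs were called in cerebellum, cortex, hippocampus and olfactory bulb, and 0 had an unadjusted p under 0.05, against 3.52%, 3.96%, 3.08% and 3.96%. For the difference of the effect between regions 0 of 8 were called, against 0%, and 0 had an unadjusted p under 0.05, against 3.08%. The log2 ratio differences of the mean ran from -0.14 (let-7f-1-3p, 95% interval -0.43 to 0.16) to 0.24 (let-7a-2-3p, -0.23 to 0.71). In hippocampus all 8 estimates were below 0, from -0.63 to -0.12 with a median of -0.20, against -0.01 over all pairs. That comparison rests on 2 knockout libraries. The guides, the denominators, had level estimates above 0 in 9 of 9 in the same comparison (edgeR, median 0.26, 0 called, 2 at an unadjusted p under 0.05). Choroid plexus and ciliated markers summed to 10634, 3079 and 13399 CPM in the wild type hippocampus libraries and to 3299 and 3571 CPM in the knockout, and their part was not tested.

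The second question was how the strands differ between regions, asked within each genotype. All 8 passenger strands differed across the 4 regions in wild type by edgeR, where 80.0% of all miRNAs did. In the knockout 7 of 8 differed, against 75.3%, and let-7a-2-3p had an adjusted p of 0.0604 (edgeR). Shares near the background such as these say little about the members themselves. The labels do not tell whether 1 mouse gave more than 1 region.

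Levels between regions depend on the scaling. TMM factors were 0.76 to 0.94 in cerebellum, 1.22 to 1.41 in cortex and hippocampus and 0.62 to 0.76 in olfactory bulb, and with library sizes alone the median of all miRNAs moved by as much as -0.91 (log2, olfactory bulb minus hippocampus). Of 48 member-by-pair comparisons in wild type, 28 were called with TMM, and 16 of them were called with the same sign under all 4 scalings tried (TMM, DESeq2 size factors, upper quartile, library size only). Counts of members, here and elsewhere, take the 2 identical rows of let-7a-1/c-2-3p as 2 members, and each of these rows gave the same 4 calls. Between cortex and olfactory bulb 5 of 8 were called, against 53.2%, none of them among the 16. Between hippocampus and olfactory bulb 2 of 8 were called, against 53.4%, and let-7c-1-3p is the one among the 16. Values below are TMM-scaled unless stated.

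**Figure D3:**
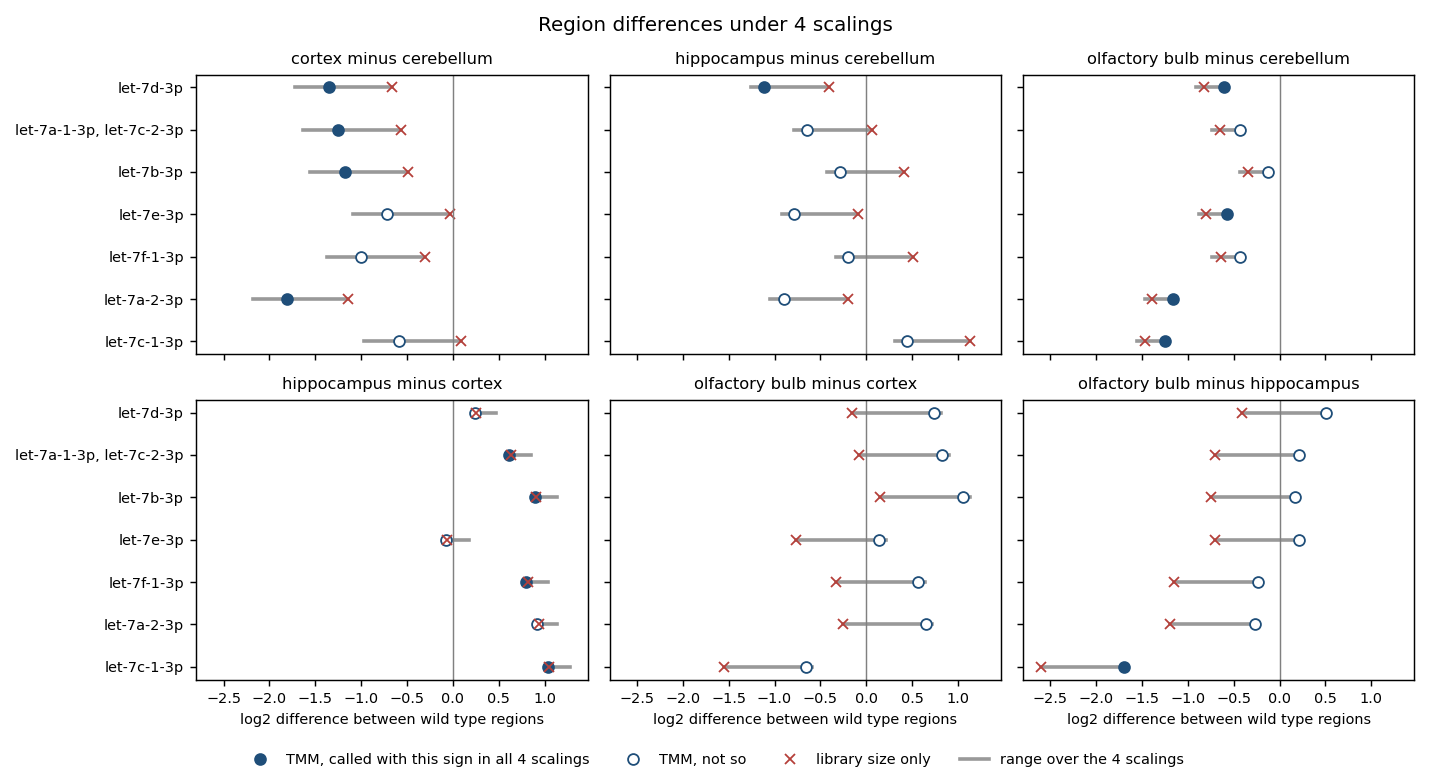
Log2 difference between wild type regions (x axis) for each let-7 passenger strand (y axis) in the 6 pairs of regions. Circles are TMM values, filled where the difference was called with the same sign in all 4 scalings, crosses are values with library size only, and grey lines span the 4 scalings. The hippocampus to cortex panel moves least with scaling, and in the panels of olfactory bulb minus cortex and minus hippocampus several points, let-7d-3p among them, lie on the other side of 0 with library size only.

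Cerebellum held more of most strands than cortex. By edgeR 7 of 8 members were called, each lower in cortex, against 62.6% of all miRNAs called in either direction. Let-7d-3p was at 580.2, 679 and 601 CPM in cerebellum and at 214, 272 and 245 CPM in cortex, a log2 difference of -1.35 (SE 0.14, edgeR adjusted p = 3.95e-08). Every cerebellum library was above every cortex library. Let-7a-1/c-2-3p was at 249, 295 and 277 CPM against 106, 141 and 96.1 CPM (-1.26, SE 0.19, edgeR adjusted p = 6.84e-06). Let-7b-3p (-1.18) and let-7a-2-3p (-1.81) were lower in cortex as well. These 5 members kept their call in all 4 scalings. With library size only let-7d-3p differed by -0.66, let-7a-1/c-2-3p by -0.57, let-7b-3p by -0.49 and let-7a-2-3p by -1.14. Let-7e-3p (-0.71) and let-7f-1-3p (-1.0) lost their call with library size only (-0.03 and -0.31). Let-7c-1-3p, at -0.59 (SE 0.32, edgeR adjusted p = 0.110), was not called. These comparisons use the wild type cortex libraries with olfactory bulb markers, whose part in them was not tested.

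Let-7d-3p was also higher in cerebellum than in the other regions. Hippocampus held 238, 307 and 316 CPM (-1.11 against cerebellum, SE 0.14, edgeR adjusted p = 6.04e-07) and olfactory bulb 459, 392 and 369 CPM (-0.61, SE 0.14, edgeR adjusted p = 0.000767). Its cerebellum values lie above those of all other regions, and these 2 calls held in all 4 scalings. The order by mean was cerebellum, olfactory bulb, hippocampus and cortex. Hippocampus and cortex did not differ beyond their spread (0.24, SE 0.14, edgeR adjusted p = 0.261), and with library size only the estimate for olfactory bulb was below hippocampus (-0.41). In the knockout let-7d-3p kept the highest level in cerebellum, at 678, 660.4 and 710.4 CPM against 232 to 422 CPM in the other regions. Its 3 most similar miRNAs over the 12 wild type libraries were miR-378a-3p (r = 0.96), miR-669a-3p (0.96) and miR-669o-3p (0.96). Over the knockout libraries their r was 0.97, 0.91 and 0.91. MiR-669a-3p and miR-669o-3p had equal r in wild type (0.956194) and in the knockout (0.907001), so they may not be separate profiles. These values are a description over libraries that share region and scaling.

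Against cerebellum, 5 of 8 members were called in hippocampus (57.7% of all miRNAs) and 4 of 8 in olfactory bulb (55.5%), all lower. In hippocampus let-7d-3p alone held in the 4 scalings. In olfactory bulb all 4 held: let-7d-3p, let-7e-3p, let-7a-2-3p and let-7c-1-3p. Let-7e-3p was at 49.4, 49.4 and 51.1 CPM in cerebellum and at 37.9, 28.7 and 33.6 CPM in olfactory bulb, with no overlap (-0.58, SE 0.14, edgeR adjusted p = 0.00200). Its other 2 regions were near the olfactory bulb with TMM, at 27.8 to 31.9 CPM in cortex and 28.1 to 29.6 CPM in hippocampus. By library size only their means, 40.6 and 39.0 CPM, were instead near cerebellum (41.5 CPM), with olfactory bulb lower (23.8 CPM). Let-7a-2-3p was at 7.81, 6.21 and 6.34 CPM in cerebellum and at 4.51, 2.01 and 1.74 CPM in olfactory bulb (-1.16, SE 0.34, edgeR adjusted p = 0.00620). Without olfactory bulb WT 1, the highest of its group, this became -1.82. The red blood cell markers (4 of 4 counted) were also highest in cerebellum, with 32109 to 47233 CPM summed in wild type against 10231 CPM or less in the other wild type regions. The choroid plexus and ciliated markers (8 of 8 counted) summed to 11180 to 18754 CPM in wild type cerebellum, against 2096 to 3055 CPM in cortex and 4087 to 5173 CPM in olfactory bulb, with no overlap. The part of either list in the cerebellum differences was not tested.

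Hippocampus held more of 5 members than cortex. By edgeR 5 of 8 were called, each higher in hippocampus, against 20.0% of all miRNAs in either direction, and all 5 held in the 4 scalings. Let-7b-3p was at 179, 135 and 142 CPM in hippocampus and at 60.1, 96.5 and 89.5 CPM in cortex (0.89, SE 0.19, edgeR adjusted p = 0.00183). The groups do not overlap. Let-7c-1-3p gave 1.03 (SE 0.30, edgeR adjusted p = 0.0184), let-7f-1-3p 0.80 (SE 0.22, edgeR adjusted p = 0.0118) and let-7a-1/c-2-3p 0.61 (SE 0.19, edgeR adjusted p = 0.0228). These 3 sequences each lost the call without some single library: let-7c-1-3p without cortex WT 2 or 3 or hippocampus WT 3 (adjusted p up to 0.103), let-7f-1-3p without cortex WT 3 or hippocampus WT 1 (up to 0.0817), and let-7a-1/c-2-3p without cortex WT 1 or 3, hippocampus WT 2 or 3 or hippocampus KO 3 (up to 0.13). The call of let-7b-3p did not change with any library left out. All these comparisons use the wild type cortex libraries with olfactory bulb markers. Choroid plexus and ciliated markers were also higher in wild type hippocampus (3079 to 13399 CPM) than in wild type cortex (2096 to 3055 CPM), and the part of either list was not tested. In the knockout, let-7b-3p was at 141 and 138 CPM in hippocampus and at 71.2, 89.9 and 98.1 CPM in cortex, with no overlap, and the same held for let-7a-1/c-2-3p and let-7c-1-3p. Let-7f-1-3p overlapped there, at 14.2 and 11.03 CPM in hippocampus and 11.6, 8.26 and 6.84 CPM in cortex.

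With TMM scaling, let-7c-1-3p was the only member with its highest wild type mean level in hippocampus. With library size only it shared this with let-7b-3p (204 CPM in hippocampus, 154 in cerebellum), let-7f-1-3p (19.8 and 13.8) and let-7a-1/c-2-3p (236 and 227). In wild type it was at 4.14, 4.56 and 4.58 CPM in hippocampus (39, 57 and 56 counts), at 3.90, 3.05 and 2.86 CPM in cerebellum, at 2.83, 1.68 and 2.02 CPM in cortex, and at 1.93, 1.10 and 0.579 CPM in olfactory bulb (18, 6 and 2 counts). Every hippocampus library was above every library of the other regions. The olfactory bulb was below hippocampus by -1.69 on the log2 scale (SE 0.34, edgeR adjusted p = 0.000262) and below cerebellum by -1.25 (SE 0.36, edgeR adjusted p = 0.00544). Both held in all 4 scalings and with each library left out, though without olfactory bulb WT 1 they became -2.29 and -1.85. Cerebellum did not differ beyond the spread from hippocampus (0.44, edgeR adjusted p = 0.193) or cortex (edgeR adjusted p = 0.110), nor cortex from olfactory bulb (-0.66, edgeR adjusted p = 0.147), though without olfactory bulb WT 1 that last difference was -1.26 (edgeR adjusted p = 0.0337). In the knockout the order by mean was the same, with 5.65 and 3.73 CPM in hippocampus and 1.73, 1.39 and 1.06 CPM in olfactory bulb. The test across knockout regions gave an adjusted p of 0.00293 by edgeR, and 0.0748 without hippocampus KO 2.

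Let-7c-1-3p and let-7f-1-3p were also the members whose ratio to the guide was called as different between wild type regions. By limma 2 of 8 were called, against 31.3% of all 227 pairs, and in the knockout 1 of 8, let-7c-1-3p (adjusted p = 0.00522), against 30.8%. Let-7c-1-3p had 0.252, 0.271 and 0.359 counts per 1000 let-7c-5p counts in hippocampus, 0.237, 0.176 and 0.197 in cortex, 0.222, 0.151 and 0.133 in cerebellum, and 0.110, 0.0478 and 0.0294 in olfactory bulb. The olfactory bulb libraries are the lowest, and all are below those of the other regions. Olfactory bulb was lower than hippocampus by a log2 ratio of -2.29 (SE 0.37, limma adjusted p = 0.000258), than cortex by -1.80 (limma adjusted p = 0.00355) and than cerebellum by -1.48 (limma adjusted p = 0.00921). The last of these was lost without olfactory bulb WT 3 (adjusted p = 0.0718). By pair of regions, 0 of 8 ratios were called for cerebellum and cortex (17.2% of all pairs of arms) and 0 of 8 for cerebellum and hippocampus (9.69%). For olfactory bulb 1 of 8 was called against cerebellum (20.3%), 1 against cortex (9.25%) and 2 against hippocampus (20.7%), and 1 of 8 for hippocampus against cortex (6.61%). The ratio does not depend on the scaling of libraries. Its comparisons with cortex use the wild type cortex libraries with olfactory bulb markers, whose part was not tested. With the reads of both let-7c passengers summed, olfactory bulb and hippocampus differed by -0.20 (limma adjusted p = 0.659).

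Let-7f-1-3p had 0.834, 0.582 and 0.965 counts per 1000 let-7f-5p counts in wild type hippocampus and 0.404, 0.479 and 0.255 in wild type cortex, with no overlap. The log2 difference was 1.07 (SE 0.28, limma adjusted p = 0.0198), and olfactory bulb was lower than hippocampus by -0.88 (SE 0.28, limma adjusted p = 0.0263). Without hippocampus WT 1 or hippocampus WT 3 the call across regions was lost (limma adjusted p up to 0.0893). The difference from cortex was lost without those or cortex WT 3, and that from olfactory bulb without those or olfactory bulb WT 2 or 3. Let-7f-2-3p, from the second let-7f hairpin, moved the same way. Its hippocampus minus cortex ratio was 0.52 (limma adjusted p = 0.140), and olfactory bulb minus hippocampus -0.59 (limma adjusted p = 0.0464). For olfactory bulb minus hippocampus let-7g-3p was called too (-0.88, limma adjusted p = 0.0216), while let-7i-3p (-0.07) and miR-98-3p (-0.20) were not. Hippocampus WT 1 and 3 are, of the hippocampus libraries, those with most markers of choroid plexus and ciliated epithelium: the 8 markers, which include miR-204-5p, had the sums given above, highest in these 2. Let-7f-1-3p itself was at 16.8, 11.7 and 15.5 CPM in hippocampus WT 1, 2 and 3. Knockout hippocampus held 3299 and 3571 CPM of the markers and 0.683 and 0.367 let-7f-1-3p counts per 1000. Over the 12 wild type libraries the 3 miRNAs most like let-7f-1-3p were miR-6953-3p (r = 0.92), miR-204-3p (0.89) and miR-204-5p (0.89). Over the knockout libraries their r was -0.14, 0.75 and 0.77. The part of these markers in the let-7f-1-3p result was not tested.

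**Figure D4:**
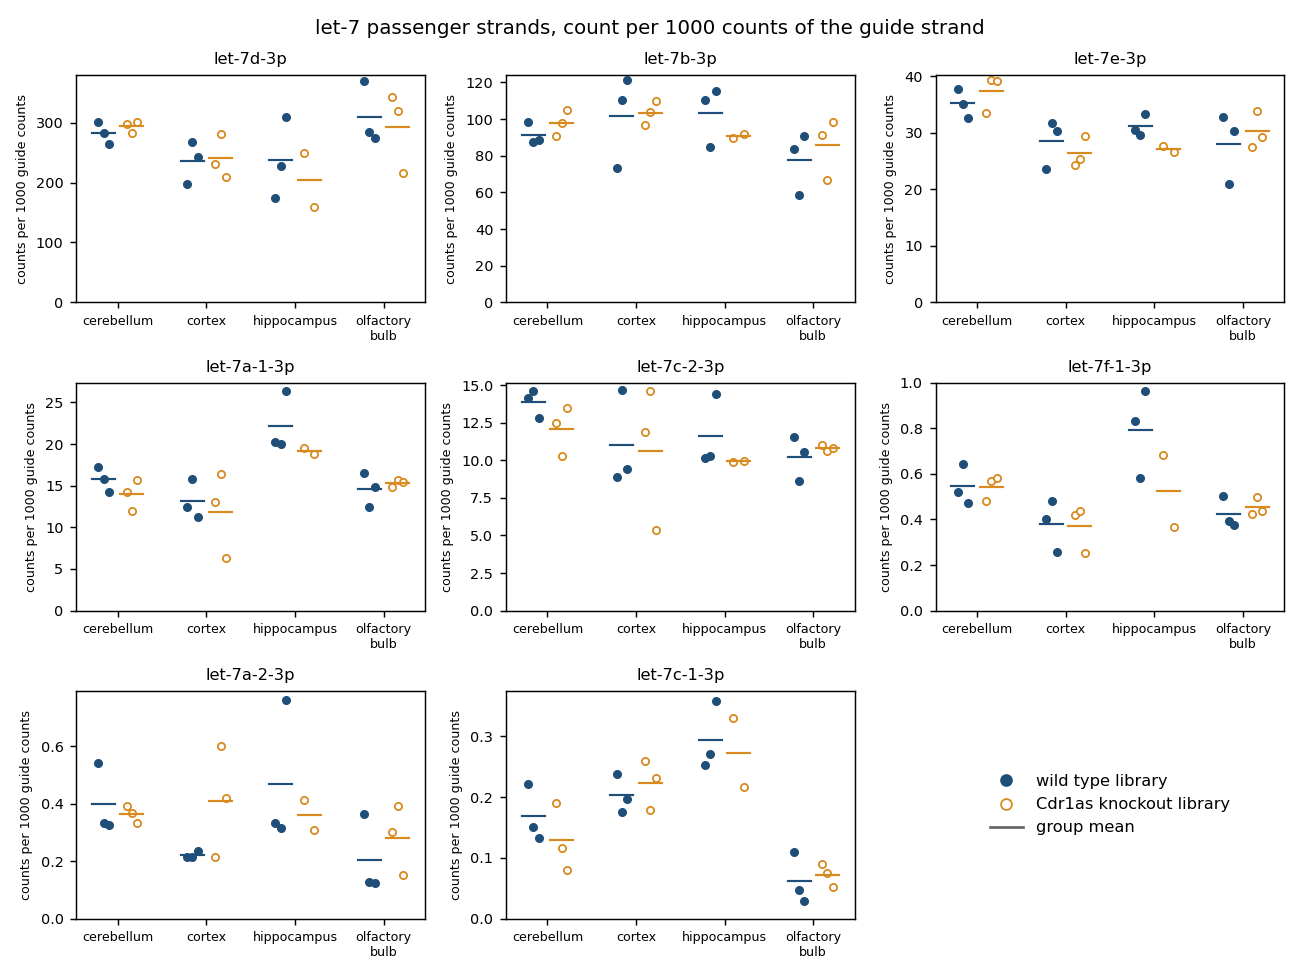
Counts of each let-7 passenger strand per 1000 counts of the guide of the same letter (y axis, from 0) by region (x axis), with wild type libraries filled, Cdr1as knockout libraries open and bars as group means. Panels run from let-7d-3p, with a median of 274, to let-7c-1-3p, with 0.179, whose wild type olfactory bulb libraries lie below the other wild type libraries.

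The ratio of the other 6 members was not called between wild type regions, which does not show that it was constant. For let-7a-2-3p the limma adjusted p across regions was 0.075, and from 0.0138 to 0.192 with single libraries left out. Its olfactory bulb minus hippocampus log2 ratio was -1.22 (SE 0.44, limma adjusted p = 0.0525). That difference was called without the shallow libraries or with a larger added count (limma adjusted p down to 0.0418). With single libraries left out it ran from -1.71 to -0.81. Let-7d-3p ran from 173 to 369 per 1000 over the 12 wild type libraries, with means of 283 ± 19 (SD, n = 3) in cerebellum and 309 ± 52 (SD, n = 3) in olfactory bulb. Let-7b-3p had 91.5 ± 5.8 (SD, n = 3) in cerebellum and 102 ± 25 (SD, n = 3) in cortex, a difference within the spread. Its level over the 12 wild type libraries followed that of let-7b-5p (r = 0.87), and that of let-7d-3p followed let-7d-5p (r = 0.86). Let-7c-1-3p did not follow its guide (r = -0.15), nor did let-7f-1-3p closely (r = 0.25). These correlations describe libraries of 4 regions and are not tests. Let-7a-1/c-2-3p per 1000 let-7a-5p counts was highest in hippocampus, at 20.2, 20.0 and 26.4 against 11.3 to 17.3 in the other wild type regions, and its limma adjusted p across regions was 0.0720. That became a call without cortex KO 2 or cortex KO 3 (limma adjusted p down to 0.00483), and ran up to 0.273 with other libraries left out. Per 1000 let-7c-5p counts the same reads gave 10.2, 10.3 and 14.4 in hippocampus, inside the range of the other regions.

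The 2 let-7c hairpins share a guide, so their passengers were set side by side. Per 1000 counts of let-7c-2-3p, whose row also holds let-7a-1-3p, wild type libraries held 24.7, 26.3 and 24.9 counts of let-7c-1-3p in hippocampus. Cortex held 26.7, 11.9 and 21.0, cerebellum 15.7, 10.3 and 10.3, and olfactory bulb 9.48, 5.55 and 2.79. Hippocampus lies above cerebellum and olfactory bulb with no overlap, and overlaps cortex. In the knockout the ratio was 33.3 and 21.7 in hippocampus and 8.20, 7.04 and 4.88 in olfactory bulb, again with no overlap. The 2 let-7a hairpins gave 25.1 ± 5.5 counts of let-7a-2-3p per 1000 let-7a-1-3p in wild type cerebellum and 13.6 ± 7.5 in olfactory bulb (SD, n = 3 each), with ranges that overlap. Per 1000 let-7f-2-3p, let-7f-1-3p was at 252 ± 38 in wild type hippocampus, 205 ± 31 in cerebellum, 204 ± 24 in olfactory bulb and 171 ± 31 in cortex (SD, n = 3 each). Hippocampus overlaps cerebellum and olfactory bulb there, and not cortex.

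Let-7c-1 shares its host transcript with miR-125b-2 and miR-99a, and their 3p strands, like let-7c-1-3p, were lowest in wild type olfactory bulb. The order of the other regions differed. MiR-125b-2-3p was at 776 ± 39 CPM in wild type hippocampus, 485 ± 59 in cerebellum, 493 ± 15 in cortex and 245 ± 21 in olfactory bulb (SD, n = 3 each). Olfactory bulb was below hippocampus by -1.67 on the log2 scale (SE 0.13, edgeR adjusted p = 8.26e-10), where let-7c-1-3p gave -1.69. MiR-99a-3p was at 97.7 ± 2.1 CPM in hippocampus, 101 ± 6 in cerebellum, 49.5 ± 7.2 in cortex and 37.2 ± 1.9 in olfactory bulb. Cerebellum and hippocampus overlap for miR-99a-3p, while for miR-125b-2-3p every cerebellum library was lower. With TMM scaling the 5p strands were not lowest in olfactory bulb. MiR-99a-5p was at 659 ± 76 CPM in hippocampus, 602 ± 60 in cortex, 540 ± 68 in olfactory bulb and 537 ± 63 in cerebellum. MiR-125b-5p was highest in cortex (7774 ± 470 CPM) and lowest in cerebellum (5991 ± 311 CPM). By library size only, both 5p strands instead had their lowest wild type mean in olfactory bulb, with cerebellum next. MiR-99a-5p was then at 385 CPM in olfactory bulb and 446 in cerebellum, and miR-125b-5p at 4900 and 4999 CPM. Let-7c-1-3p had r = 0.23 with miR-99a-5p in wild type and 0.82 in the knockout. Over the 12 wild type libraries let-7c-1-3p had r = 0.82 with miR-99a-3p, 0.81 with miR-125b-2-3p and 0.06 with let-7c-2-3p, and over the 11 knockout libraries 0.58, 0.80 and -0.26. By the same measure miR-29c-5p (0.94), miR-150-5p (0.93) and miR-872-3p (0.92) were the 3 most like it in wild type. Over the knockout libraries their r was 0.73, 0.53 and 0.17.

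MiR-125b also has a second hairpin, miR-125b-1, near let-7a-2. Per 1000 counts of miR-125b-1-3p, wild type libraries held 7440 ± 482 counts of miR-125b-2-3p in hippocampus, 5441 ± 536 in cerebellum, 3469 ± 145 in cortex and 1692 ± 159 in olfactory bulb (SD, n = 3 each). The groups do not overlap. Hippocampus was thus the highest and olfactory bulb the lowest region in both copy ratios, while cortex and cerebellum came in the opposite order. At the other locus the strands did not move together: let-7a-2-3p had r = -0.77 with miR-125b-1-3p and 0.55 with miR-100-3p over the 12 wild type libraries. Of the strands of its neighbours, let-7e-3p had r = 0.94 with miR-125a-5p, 0.79 with miR-99b-3p, 0.67 with miR-125a-3p and 0.65 with miR-99b-5p. With its own guide, let-7e-5p, r was 0.72. The 3 miRNAs most like each remaining member in wild type were miR-378c, miR-194-5p and miR-30b-5p for let-7e-3p (r of 0.95 to 0.96), and let-7i-3p, miR-26b-3p and miR-532-3p for let-7a-2-3p (0.91 to 0.94). For let-7b-3p they were miR-8114, miR-219a-1-3p and miR-99b-3p (0.89 to 0.93), and for let-7a-1/c-2-3p let-7f-2-3p, miR-7047-3p and miR-211-5p (0.93 to 0.95). MiR-211-5p is also on the choroid plexus list. Over the knockout libraries, in the order named, r was 0.87, 0.90 and 0.82 for let-7e-3p and 0.71, 0.51 and 0.67 for let-7a-2-3p. It was 0.70, 0.62 and 0.85 for let-7b-3p and 0.82, 0.61 and 0.71 for let-7a-1/c-2-3p.

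**Figure D5:**
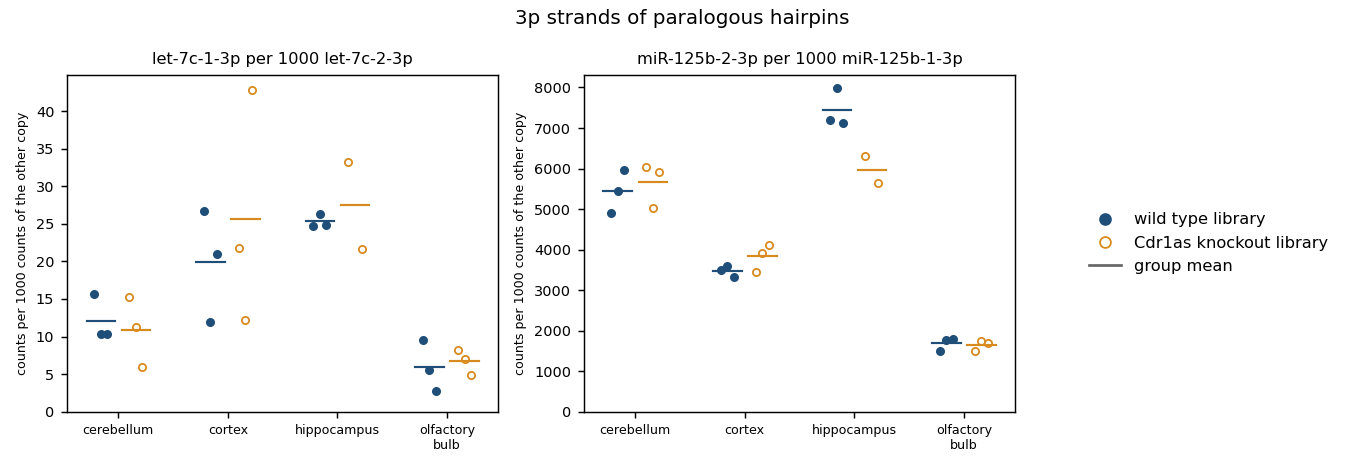
Counts of the 3p strand of one hairpin per 1000 counts of the 3p strand of its paralogue (y axis, from 0) by region (x axis): let-7c-1-3p over let-7c-2-3p, left, and miR-125b-2-3p over miR-125b-1-3p, right. Wild type libraries are filled and Cdr1as knockout libraries open, with bars as group means. Both panels are lowest in olfactory bulb, at wild type means of 5.94 and 1692, and highest in hippocampus, at 25.3 and 7440 in wild type.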

How the data were processed

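Each library has 1 deposited table of unnormalized counts, in which the authors list 1915 mature miRNAs by name. The genome was mm9, per the submitters' processing notes. RNA was extracted with TRIZOL and libraries came from the TruSeq Small RNA Library Prep Kit, per the labels. The aligner, the counter and the handling of multiply matching reads were not given in the sources used here. Strands, lists and tests were chosen with earlier results of these data known. The 8 strands are named in every comparison, and for each the 3 miRNAs with the highest Pearson r of TMM log2 CPM over the 12 wild type libraries.

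All 23 libraries entered 1 fit of 8 groups in edgeR 4.0.16 (quasi-likelihood test, TMM, filterByExpr with a minimum count of 10, 669 miRNAs kept), with Benjamini-Hochberg adjustment and a threshold of 0.05. The filter kept at least 99.988% of the counts of each library. Arm ratios, log2 of (3p count + 0.5) over (5p count + 0.5), were tested in limma 3.58.1 with a trend on the smaller arm's count, over 227 pairs. DESeq2 1.42.0, limma-voom, other scalings, no filter, replicate blocks, merged rows and single libraries left out were alternatives, and the fits were tested on simulated data. Hairpins were folded with RNAfold 2.7.2. Of the list of other let-7 3p strands, let-7j and let-7k were left out because their RefSeq sequences are of the guide type. Same-numbered libraries of the 2 genotypes deviated together with r over 0.1 in 5 of 11 pairs, so the numbers were not treated as pairing.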

Additional observations from a re-analysis of the deposited data

How the results depend on the processing

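No member was called between the genotypes under any of the 10 or 11 other settings or with any of the 23 libraries left out. Among 1351 recomputed genotype differences, 92 changed sign, none of them called and the largest at 0.25 (log2).

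With library size only in place of TMM, these wild type region differences, called under one or both scalings, changed sign (log2). Hippocampus minus cerebellum became 0.057 for let-7a-1-3p and let-7c-2-3p and 0.51 for let-7f-1-3p. Olfactory bulb minus cortex became -0.075 for let-7a-1-3p and let-7c-2-3p, -0.16 for let-7d-3p, -0.77 for let-7e-3p and -0.33 for let-7f-1-3p. Olfactory bulb minus hippocampus became -0.70 for let-7a-1-3p and let-7c-2-3p, -0.75 for let-7b-3p, -0.41 for let-7d-3p and -0.71 for let-7e-3p. Signs also changed, with no call under either scaling, for let-7b-3p in hippocampus minus cerebellum (-0.29 to 0.41), let-7a-2-3p in olfactory bulb minus cortex (0.65 to -0.25) and let-7c-1-3p in cortex minus cerebellum (-0.59 to 0.08). The median of all miRNAs moved by 0.70, -0.90 and -0.91 in the first 3 pairs named.

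The number of members with a called passenger to guide ratio across wild type regions, 2, became 1 with a mean count of at least 50 in both arms, which leaves out the rarest strands, and 0 with the 3p rows of a letter summed, where let-7c-1-3p is a small part of the sum. It became 3, with let-7a-1-3p added, without the 2 shallow libraries (adjusted p = 0.00505). It was 1 to 3 with single libraries left out, with 1 without hippocampus WT 1 or 3. In the knockout the count of 1 became 0 under both settings and was 1 to 2 with single libraries left out, with 2 without cortex KO 2. The 28 calls between region pairs ranged from 27 to 34 over other settings and from 23 to 30 with a library left out. Knockout calls across regions ranged from 6 to 8, where let-7f-1-3p lost its call without cerebellum KO 2 or 3 or cortex KO 2 or 3 (adjusted p up to 0.0949).

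With the replicate number as a block 0 of 8 members were called between the genotypes in each comparison, as without it. Over all miRNAs the block gave 2 calls in hippocampus against 0, and 14 in cortex and 10 in the mean as before. In cerebellum all 3 same-numbered pairs had r over 0.1 (0.10 to 0.37). Number 2 had the highest r, while numbers 1 and 3 (0.12 and 0.10) were below cortex number 2 and olfactory bulb number 3 (0.14 each). A block within the cerebellum alone, without the 2 shallow libraries and without wild type cortex were chosen after seeing the data. The cerebellum block ended the hippocampus minus cerebellum call of let-7a-1/c-2-3p (-0.56, adjusted p = 0.0565) and the knockout region call of let-7f-1-3p (adjusted p = 0.127), and gave let-7c-1-3p a call in cortex minus cerebellum (-0.98, adjusted p = 0.0297). Without wild type cortex 6 of 8 members differed across the other regions, and let-7b-3p (adjusted p = 0.0803) and let-7f-1-3p (0.212) did not pass.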
